A study of Mus musculus with 12 samples.

Results

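The genes described here, 10 in number, belong to interleukin-1 (IL-1), interleukin-6 (IL-6) and NF-κB signalling and were followed in mouse liver: the receptor genes Il6ra and Il1r1, the secreted IL-1 antagonist gene Il1rn, the inhibitor genes Nfkbia and Socs3, the transcription factor and cofactor genes Stat3, Cebpb, Cebpd and Nfkbiz, and the target gene Lcn2. They were chosen by name as signalling and target genes of the hepatic acute phase response, with earlier results of these data known. The table held 12393 genes with a probe set of their own. All 10 were found, and where a gene had several probe sets the one with the highest mean over the arrays was used.

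Liver RNA was hybridized to Affymetrix arrays, 1 array a mouse, in 4 groups of 3. KO_RA mice lacked functional RXRα (retinoid X receptor alpha) in hepatocytes and ate all-trans retinoic acid (RA) at 150 mg/kg diet for 7 days, and KO mice carried the same deletion on normal diet. WT_RA mice were wild type on the RA diet, and WT mice were wild type on normal diet. All were C57BL/6 mice, males 12 weeks old according to the methods, which give the age with the wild type mice. In the KO mice a Cre transgene driven by the albumin promoter removed the RXRα exon that covers the DNA-binding domain, a truncated protein with the ligand-binding domain was still made, and liver cells other than hepatocytes kept the receptor. The labels call the arrays of a group biological replicates.

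In the acute phase response, IL-1 and TNF act through NF-κB and IL-6 acts through gp130, the JAK kinases and STAT3, mainly in hepatocytes. NF-κB is held in the cytoplasm by IκBα, the product of Nfkbia, and STAT3 signalling is limited by SOCS3. C/EBPβ and C/EBPδ were first known as nuclear factors of IL-6 and related cytokines, and with NF-κB and STAT3 they drive secreted proteins such as lipocalin 2, serum amyloid A and orosomucoid.

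Array medians lay between 6.26 and 6.35 log2 units. The hepatocyte gene Alb read 13.83 to 14.04 on the 12 arrays as a marker of the labelled tissue. A further hepatocyte marker, Apob, read 11.30 on WT_RA 3, 11.23 on KO 1 and 12.87 to 13.28 on the 10 remaining arrays. Rxra mRNA read 10.11 to 10.91 in KO mice and 9.997 to 10.82 in wild type mice over both diets, so the arrays held no check of the deletion by level; a probe set outside the deleted exon would not show it. Arrays WT_RA 3 and KO 1 stood apart: their Actb 3′ controls read 9.40 (WT_RA 3) and 9.12 (KO 1), where the 10 remaining arrays gave 12.1 to 12.9. The changes of the 10 genes on the RA diet are also given without them. Levels are in log2 units of the deposited table throughout, so a change of 1 is a doubling, and levels of different genes were not compared.

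RefSeq promoter windows (GRCm38.p6, 250 bases before and 50 after a transcript's start) were held for 8 of the 10 genes in 11 windows, and Nfkbiz and Cebpd had none. Each was searched on both strands for the NF-κB decamer, the STAT motif TTCNNNGAA, the C/EBP motif TTGCNNAA and the nuclear receptor half-site AGGTCA. Of all 32851 windows, 5.8%, 8.3%, 10.8% and 16.3% held these motifs, in that order. Among the 8 genes, the NF-κB decamer was found in 1, Nfkbia, and the STAT motif in 1, Socs3. The C/EBP motif was found in 2, Lcn2 and Il1r1, and the half-site in 1, Il1rn. The motifs did not overlap one another. The 3 stretches below are each 100 bases on the minus strand of the genome, read in the gene's direction, with 1 match in capitals. They show the C/EBP motif in Lcn2, the STAT motif in Socs3 and the NF-κB decamer in Nfkbia. They cover bases -250 to -151 of Lcn2 (chr2:32387890-32387989), -200 to -101 of Socs3 (chr11:117969467-117969566) and -100 to -1 of Nfkbia (chr12:55492648-55492747), counted from the start. A match describes the letters only.
Lcn2: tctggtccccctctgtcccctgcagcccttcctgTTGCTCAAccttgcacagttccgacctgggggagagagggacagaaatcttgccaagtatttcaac
Socs3: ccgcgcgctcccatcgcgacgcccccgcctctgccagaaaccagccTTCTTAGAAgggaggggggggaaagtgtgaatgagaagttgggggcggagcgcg
Nfkbia: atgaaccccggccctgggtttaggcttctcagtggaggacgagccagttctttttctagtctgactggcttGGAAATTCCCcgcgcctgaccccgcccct

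The RA diet raised Lcn2 and Nfkbiz in both genotypes, and Cebpb in KO mice. In WT_RA against WT mice, 2 of the 10 genes rose and 0 fell at an adjusted p under 0.05, where 0.871% of all genes rose and 0.403% fell. In KO_RA against KO mice, 3 rose and 0 fell, beside 0.274% and 0.226% of all genes. On normal diet 1 gene, Cebpb, was lower in KO than in WT mice, beside 0.831% of all genes lower, and 0 were higher, beside 0.484%. Under RA, 0 of 10 differed between KO_RA and WT_RA mice, beside 3.95% of all genes in either direction, and 1 of 10 had an unadjusted p under 0.05, beside 17.8% of all genes. P-values are from limma over all 12393 genes with Benjamini-Hochberg adjustment, and errors are standard errors (SE) with n = 3 a group. The KO arrays serve in both KO_RA against KO and KO against WT, and the WT arrays in both WT_RA against WT and KO against WT, so those comparisons are not independent. Because the genes were chosen with earlier results known, counts and medians beside those of all genes, here and below, are a description.

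**Figure D1:**
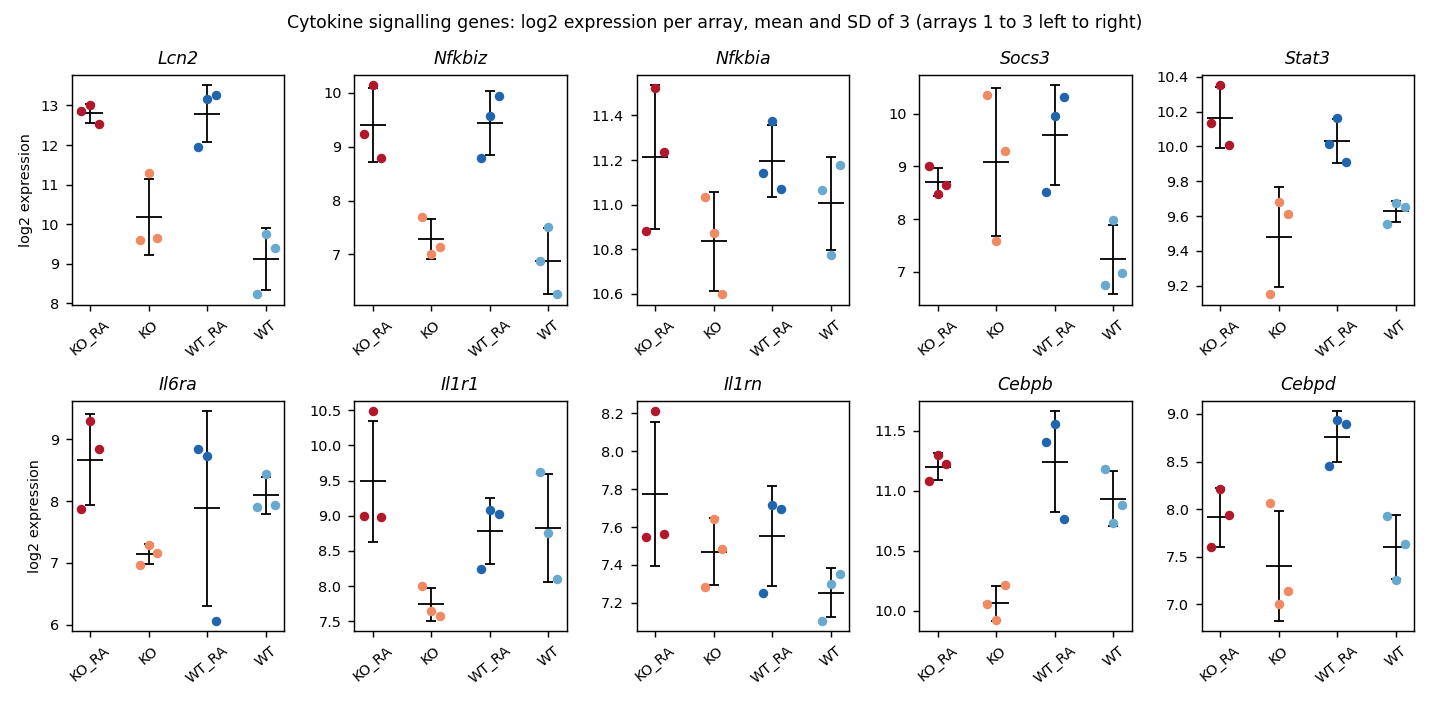
Log2 expression of each of the 10 genes on every array (points, arrays 1 to 3 left to right), with the mean and SD of 3 arrays (black), for KO_RA, KO, WT_RA and WT; each panel has its own axis. Lcn2 and Nfkbiz on RA lay above every array on normal diet, and Cebpb in KO lay below all other groups.

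Of the receptor genes, Il6ra encodes the ligand-binding subunit for IL-6. Il6ra read 7.86, 9.30 and 8.84 in KO_RA livers and 6.97, 7.28 and 7.17 in KO livers. In wild type mice it read 8.84, 8.73 and 6.07 in WT_RA livers and 7.90, 8.44 and 7.93 in WT livers. The KO arrays lay below all KO_RA and WT arrays, and WT_RA 3 was the lowest of the 12. The change was 1.53 ± 0.59 for KO_RA against KO (limma adjusted p = 0.280) and -0.95 ± 0.59 for KO against WT (adjusted p = 0.436), and neither passed. For WT_RA against WT it was -0.21 ± 0.59 and became 0.70 without WT_RA 3 and KO 1, while KO_RA against KO became 1.44. Without WT_RA 3 alone the KO_RA change, of the same size, had an adjusted p of 0.0446. The further Il6ra probe set showed 0.53 for KO_RA against KO and -0.30 for KO against WT, smaller and in the same directions.

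Il1r1 encodes the signalling receptor for IL-1α and IL-1β. It read 8.996, 10.49 and 8.99 in KO_RA livers and 8.004, 7.65 and 7.57 in KO livers, with no overlap. In wild type mice, Il1r1 read 8.24, 9.08 and 9.03 in WT_RA livers and 9.62, 8.75 and 8.09 in WT livers, and these overlapped. The KO arrays were the lowest of all groups. The change was 1.75 ± 0.43 for KO_RA against KO (limma adjusted p = 0.0949) and -1.08 ± 0.43 for KO against WT (adjusted p = 0.243). For WT_RA against WT it was -0.04 ± 0.43. These values were 1.88, -1.21 and -0.16 without WT_RA 3 and KO 1.

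Il1rn, whose product blocks the IL-1 receptor, read 7.55, 8.21 and 7.56 in KO_RA, 7.29, 7.64 and 7.48 in KO, 7.25, 7.72 and 7.70 in WT_RA and 7.11, 7.30 and 7.35 in WT livers. Compared groups overlapped, and its changes on RA were 0.30 ± 0.18 in either genotype (limma adjusted p = 0.471 for KO_RA against KO and 0.616 for WT_RA against WT). They were 0.21 in KO mice and 0.23 in wild type mice without WT_RA 3 and KO 1. Of its 3 probe sets, all were higher on average in WT_RA than in WT livers, by 0.30 to 1.31. The dimmest showed 1.31, reading 5.70, 7.29 and 7.28 in WT_RA and 5.35, 5.54 and 5.44 in WT livers, without overlap. Its difference for KO_RA against KO was 0.69, with overlap.

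Among the inhibitors, Nfkbia was the steadiest gene of the 10, with a range of 0.93 over the 12 arrays. Nfkbia read 10.88, 11.52 and 11.24 in KO_RA, 11.04, 10.87 and 10.60 in KO, 11.14, 11.37 and 11.07 in WT_RA and 11.07, 10.77 and 11.18 in WT livers, and each compared pair of groups overlapped. Its change was 0.38 ± 0.17 for KO_RA against KO (limma adjusted p = 0.347) and 0.19 ± 0.17 for WT_RA against WT (adjusted p = 0.791). All 4 of its probe sets were higher in KO_RA than in KO livers, by 0.38 to 0.59. The 95% interval of the change in wild type mice ran from -0.18 to 0.56. Leaving out WT_RA 3 and KO 1 gave 0.48 for KO_RA against KO and 0.25 for WT_RA against WT.

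Socs3, the feedback inhibitor induced by STAT3, was spread widely within groups. It read 9.004, 8.47 and 8.64 in KO_RA livers and 10.36, 7.58 and 9.30 in KO livers, so that KO spanned KO_RA on both sides. In wild type mice, Socs3 read 8.52, 9.96 and 10.31 in WT_RA livers and 6.74, 7.98 and 6.97 in WT livers, with no overlap. The change was 2.37 ± 0.62 for WT_RA against WT, a 5.16-fold difference that did not pass (limma adjusted p = 0.101). It was 1.85 ± 0.62 for KO against WT (adjusted p = 0.174) and -0.37 ± 0.62 for KO_RA against KO (adjusted p = 0.818). The WT_RA change passed without KO 1 (adjusted p = 0.0465) or without KO 2 (0.0295), arrays that enter this comparison through the shared estimate of spread only. Without WT_RA 3 and KO 1, the values were 2.01 for WT_RA against WT, 1.20 for KO against WT and 0.27 for KO_RA against KO. All 3 Socs3 probe sets were higher in WT_RA than in WT livers, by 1.37 to 2.37.

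Of the transcription factors, Stat3 carries the IL-6 signal to the nucleus. Stat3 read 10.13, 10.35 and 10.01 in KO_RA livers and 9.15, 9.68 and 9.61 in KO livers. It read 10.01, 10.16 and 9.91 in WT_RA livers and 9.56, 9.67 and 9.65 in WT livers. Every array on RA lay above every array on normal diet. The change was 0.69 ± 0.14 for KO_RA against KO (limma adjusted p = 0.0542) and 0.40 ± 0.14 for WT_RA against WT (adjusted p = 0.233), and neither passed. When WT_RA 3 and KO 1 were left out, these values were 0.52 and 0.46. A further Stat3 probe set was lowest on the arrays with the low Actb control: it read 6.69 on KO 1 and 7.89 on WT_RA 3, against 8.97 to 10.70 on the others. There KO_RA exceeded KO by 2.02, or by 1.21 without those arrays, and WT_RA against WT was -0.11, or 0.57 without them. The remaining Stat3 probe set lay near 5.27 and differed by 0.05 between KO_RA and KO.

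**Figure D2:**
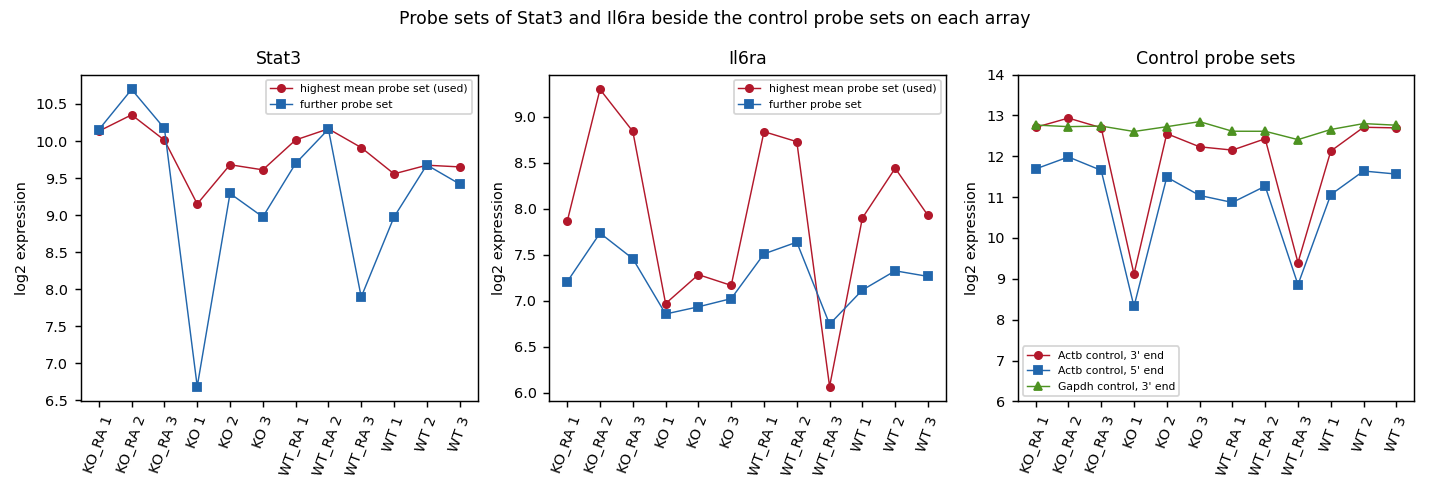
Log2 expression on each array of 2 Stat3 probe sets, 2 Il6ra probe sets, and the Actb and Gapdh control probe sets. The Actb controls and the further Stat3 probe set were lowest on KO 1 and WT_RA 3, the Il6ra probe sets on WT_RA 3, and the Gapdh 3′ control stayed between 12.4 and 12.8.

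Cebpb encodes C/EBPβ, a leucine zipper factor of the acute phase and of gluconeogenesis. Cebpb read 11.08, 11.30 and 11.22 in KO_RA livers and 10.06, 9.92 and 10.21 in KO livers. It read 11.40, 11.56 and 10.77 in WT_RA livers and 11.18, 10.73 and 10.88 in WT livers. The KO arrays lay below all 9 others, and the remaining groups overlapped. Cebpb rose by 1.14 ± 0.18 in KO_RA against KO mice, 2.20-fold (limma adjusted p = 0.0252), and was lower by a factor of 1.83 in KO than in WT mice (-0.87 ± 0.18, adjusted p = 0.0423). Its change in WT_RA against WT was 0.31 ± 0.18 (adjusted p = 0.599), with a 95% interval of -0.09 to 0.71. WT_RA 3 was the lowest array of its group, at 10.77, and without it the change was 0.55 (adjusted p = 0.153), and with array weights it was 0.57 (adjusted p = 0.0242). It ran from 0.15 to 0.55 without single arrays.

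Leaving out single arrays kept the direction of both Cebpb calls. The KO against WT change stayed between -0.97 and -0.74, but the limma call held in 2 of 12 such fits, those without WT_RA 2 or WT_RA 3, and the adjusted p reached 0.159 without WT 1. The KO_RA against KO call held in 7 of 12 and was lost without KO 2, KO 3, KO_RA 1, KO_RA 2 or KO_RA 3 (adjusted p up to 0.0914). Without WT_RA 3 and KO 1 both calls stood (adjusted p = 0.00766 for KO_RA against KO and 0.0130 for KO against WT). The KO against WT call was also lost with a further quantile normalization (-0.78, adjusted p = 0.0618). The second Cebpb probe set showed 1.59 for KO_RA against KO and -1.26 for KO against WT.

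Cebpd encodes C/EBPδ, which is low in resting liver and induced by cytokines. It read 7.60, 8.22 and 7.93 in KO_RA livers, 8.06, 7.01 and 7.14 in KO livers, 8.46, 8.93 and 8.90 in WT_RA livers and 7.93, 7.26 and 7.63 in WT livers. The WT_RA arrays were above all others. The change was 1.16 ± 0.27 for WT_RA against WT (limma adjusted p = 0.0650), 0.51 ± 0.27 for KO_RA against KO (adjusted p = 0.422) and -0.85 ± 0.27 for KO_RA against WT_RA (adjusted p = 0.113). Without KO 1, in the same fit over all genes, the adjusted p was 0.0183 for WT_RA against WT and 0.0342 for KO_RA against WT_RA. The changes were 1.09 for WT_RA against WT and 0.84 for KO_RA against KO without WT_RA 3 and KO 1. A dimmer Cebpd probe set differed by 0.09 between WT_RA and WT.

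Nfkbiz encodes IκBζ, an inducible nuclear cofactor of NF-κB that is needed for part of its targets, Lcn2 among them. Nfkbiz read 9.24, 10.14 and 8.79 in KO_RA livers and 7.70, 7.00 and 7.15 in KO livers. It read 8.79, 9.58 and 9.95 in WT_RA livers and 6.87, 7.50 and 6.26 in WT livers. Every RA array was more than 1 log2 unit above every normal diet array. Nfkbiz rose by 2.56 ± 0.39 in WT_RA against WT mice, 5.90-fold (limma adjusted p = 0.00966), and by 2.11 ± 0.39 in KO_RA against KO mice, 4.32-fold (adjusted p = 0.0419). KO_RA and WT_RA differed by -0.05 ± 0.39, with a 95% interval of -0.90 to 0.81. The second probe set showed 1.39 for WT_RA against WT and 1.66 for KO_RA against KO.

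The target gene Lcn2 encodes lipocalin 2, which binds iron-loaded bacterial siderophores and is made by hepatocytes in the acute phase and by neutrophils. It read 12.86, 13.00 and 12.54 in KO_RA livers and 9.60, 11.29 and 9.66 in KO livers. Lcn2 read 11.96, 13.16 and 13.26 in WT_RA livers and 8.23, 9.75 and 9.39 in WT livers. All RA arrays were above all normal diet arrays, and KO 2 was the highest of those on normal diet. Lcn2 rose 12.7-fold in WT_RA against WT mice (3.67 ± 0.49, limma adjusted p = 0.00445) and 6.16-fold in KO_RA against KO mice (2.62 ± 0.49, adjusted p = 0.0419). The KO against WT difference on normal diet was 1.06 ± 0.49 (adjusted p = 0.312), and KO_RA and WT_RA differed by 0.01 ± 0.49, with a 95% interval of -1.06 to 1.08.

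Without WT_RA 3 and KO 1, the wild type changes were 3.44 for Lcn2 and 2.31 for Nfkbiz, and those in KO mice were 2.33 and 2.32. In wild type mice the Lcn2 call held in all 12 fits that left out 1 array (3.22 to 4.09), and the Nfkbiz call in 11, with an adjusted p of 0.0502 without WT 3. In KO mice the limma calls were less steady. The Lcn2 change stayed between 2.33 and 3.18, but its adjusted p passed 0.05 without WT 2, WT 3, WT_RA 2, KO 1, KO 3, KO_RA 1, KO_RA 2 or KO_RA 3, up to 0.146, and was 0.0821 without WT_RA 3 and KO 1. The Nfkbiz change stayed between 1.74 and 2.41, and its adjusted p passed 0.05 without WT 1, WT_RA 2, KO 2, KO 3, KO_RA 1 or KO_RA 2, up to 0.141.

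**Figure D3:**
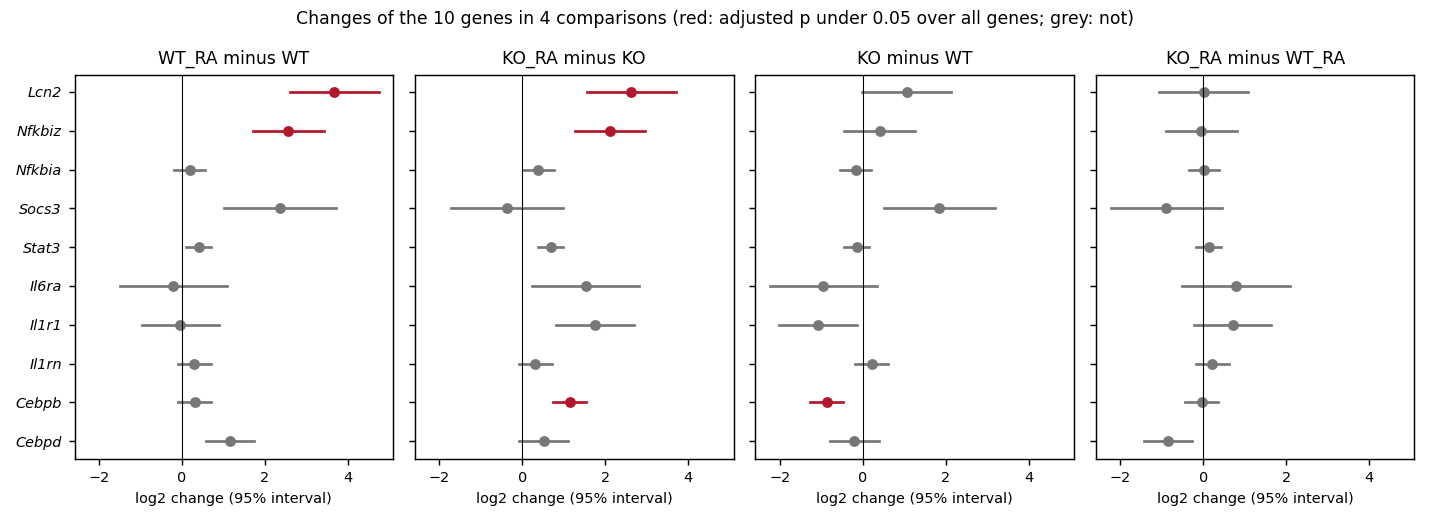
Log2 change of each gene with its 95% interval from limma in 4 comparisons, red where the adjusted p over all genes was under 0.05. Lcn2 and Nfkbiz are red on RA in both genotypes, Cebpb is red for KO_RA minus KO and, below 0, for KO minus WT, and no gene is red for KO_RA minus WT_RA.

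Counted by overlap, 5 genes lay wholly higher in WT_RA than in WT livers (Lcn2, Nfkbiz, Socs3, Stat3 and Cebpd), beside 8.77% of all genes. In KO_RA against KO livers 6 lay wholly higher (Lcn2, Nfkbiz, Stat3, Il6ra, Il1r1 and Cebpb), beside 8.58% of all genes. On normal diet 3 lay wholly lower in KO than in WT livers (Il6ra, Il1r1 and Cebpb), beside 10.2%. Under RA, 1 lay wholly lower in KO_RA than in WT_RA livers, Cebpd, beside 14.3%. The median change of the 10 was 0.36 for WT_RA against WT, where that of all genes was -0.01, and 0.91 for KO_RA against KO, where that of all genes was -0.03.

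The difference between the RA effects, KO_RA minus KO less WT_RA minus WT, passed for 0 of 10 genes, beside 0.00807% of all genes, which is 1 gene. At an unadjusted p under 0.05 there were 3, beside 11.7% of all genes. These were Socs3 (-2.74 ± 0.87, limma adjusted p = 0.265), Cebpb (0.83 ± 0.26, adjusted p = 0.255) and Il1r1 (1.79 ± 0.60, adjusted p = 0.288). Without WT_RA 3 and KO 1 the values were -1.74 for Socs3, 0.59 for Cebpb and 2.04 for Il1r1. The RA effects on Lcn2 and Nfkbiz differed by -1.05 ± 0.69 and -0.45 ± 0.55, with 95% intervals of -2.56 to 0.47 and -1.65 to 0.76.

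Of the cytokine genes that start the pathway, Il6 was dim and its groups overlapped. Il6 read 3.24 to 3.49 in KO_RA, 3.35 to 3.58 in KO, 3.35 to 3.55 in WT_RA and 3.30 to 3.46 in WT livers, below the lower quartile of its array in each case. Il1b read 6.17 to 6.31 in KO_RA, 6.24 to 6.51 in KO, 5.92 to 6.10 in WT_RA and 5.78 to 6.20 in WT livers. Tnf read 6.57 to 6.76 in KO_RA, 6.82 to 7.05 in KO, 6.54 to 6.77 in WT_RA and 6.56 to 6.71 in WT livers. Tnf was above the array medians throughout. The KO arrays were above all others for Tnf and above those of WT and WT_RA for Il1b. Neither difference from WT passed, at 0.34 ± 0.10 for Tnf (limma adjusted p = 0.125) and 0.39 ± 0.12 for Il1b (adjusted p = 0.148). For KO_RA against KO the changes were -0.28 ± 0.10 for Tnf (adjusted p = 0.236) and -0.10 ± 0.12 for Il1b (adjusted p = 0.751).

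Of 16 measured genes of the IL-1 and interleukin pathway, 1 rose in WT_RA against WT mice, beside 0.871% of all genes. This was Il33, which encodes an alarmin of the IL-1 family (1.31 ± 0.23, limma adjusted p = 0.0203). It rose out of a low level, with means of 5.77 in WT_RA and 4.46 in WT livers. For KO_RA against KO the Il33 change was 0.91 ± 0.23 (limma adjusted p = 0.103), without overlap. The difference of RA effects passed for 0 of the 16. On normal diet 1 was higher in KO than in WT mice, Il18 (0.68 ± 0.15, adjusted p = 0.0452), beside 0.484% of all genes. In KO_RA against KO and in KO_RA against WT_RA 0 passed, with 7 and 1 at an unadjusted p under 0.05, where 14% and 17.8% of all genes were.

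Of 21 measured genes of the IL-6 family and JAK-STAT pathway, 0 passed in any comparison, with 7 at an unadjusted p under 0.05 for WT_RA against WT (11.7% of all genes) and 4 for KO_RA against KO (14% of all genes). The nearest by limma was Osmr, the oncostatin M receptor gene, at 5.29, 5.11 and 5.10 in KO_RA, 5.19, 5.51 and 5.45 in KO, 5.54, 5.89 and 6.82 in WT_RA and 4.99, 4.84 and 5.31 in WT livers. It was higher on all WT_RA arrays than elsewhere, highest on WT_RA 3. Osmr changed by 1.03 ± 0.25 for WT_RA against WT (adjusted p = 0.0783) and by -0.92 ± 0.25 for KO_RA against WT_RA (0.0684). Lifr, the leukaemia inhibitory factor receptor gene, changed by -0.91 ± 0.21 for KO_RA against KO (0.0803).

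Of 16 measured genes of the NF-κB and TNF pathway, 0 passed in any comparison, and 5 had an unadjusted p under 0.05 both for WT_RA against WT (11.7% of all genes) and for KO_RA against KO (14%). The smallest limma adjusted p-values were those of Tnf, above, and of Tnfrsf1a, the main TNF receptor gene, at 0.38 ± 0.13 for KO_RA against WT_RA (adjusted p = 0.128).

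Among 20 immediate cytokine-response genes, the metallothionein genes Mt2 and Mt1 rose in WT_RA against WT mice (1.53 ± 0.27 and 1.25 ± 0.27, limma adjusted p = 0.0203 and 0.0442), and 18 did not pass. Of all genes 0.871% rose there. At an unadjusted p under 0.05 were 10 of the 20, beside 11.7% of all genes, and 19 changes were above 0. The largest was that of Cxcl1, a chemokine gene (2.63 ± 0.65, limma adjusted p = 0.0818). Irf1, an interferon-response factor gene, was higher in KO than in WT mice (0.89 ± 0.16, adjusted p = 0.0273), beside 0.484% of all genes higher. At an unadjusted p under 0.05 were 10 of the 20 there, beside 16.3% of all genes, with 15 changes above 0 and 5 below. In KO_RA against KO mice 0 of 20 passed, with 5 at an unadjusted p under 0.05, beside 14% of all genes.

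Of 3 other C/EBP genes measured, 1 passed in any comparison. Cebpa encodes C/EBPα, the main family member of resting hepatocytes. It read 11.68, 11.65 and 11.36 in KO_RA, 11.53, 11.81 and 12.001 in KO, 11.03, 10.94 and 11.13 in WT_RA and 12.01, 11.89 and 11.73 in WT livers. The WT_RA arrays were below all the rest. Cebpa fell by 0.85 in WT_RA against WT mice (SE 0.13, limma adjusted p = 0.0102), beside 0.403% of all genes lower. It was higher in KO_RA than in WT_RA mice (0.53 ± 0.13, adjusted p = 0.0448), beside 3.95% of all genes in either direction. For KO_RA against KO its change was -0.22 ± 0.13 (adjusted p = 0.471), with overlap. The difference of RA effects passed for 0 of the 3, with 1 at an unadjusted p under 0.05, beside 11.7% of all genes.

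Of 24 measured secreted acute phase genes, 5 rose in WT_RA against WT mice and 4 in KO_RA against KO mice, beside 0.871% and 0.274% of all genes. Of the 24 changes, 23 and 24 were above 0, where 5864 and 5329 of the 12393 genes were. Orm2 and Orm3, which encode orosomucoids, rose in both genotypes: by 3.27 ± 0.49 and 2.19 ± 0.27 in KO_RA against KO mice (limma adjusted p = 0.0184 and 0.00740), and by 2.94 ± 0.49 and 1.94 ± 0.27 in WT_RA against WT mice (adjusted p = 0.0154 and 0.00553). Saa3, an amyloid A gene, rose in WT_RA mice (2.22 ± 0.47, adjusted p = 0.0431), with 0.35 ± 0.47 for KO_RA against KO (adjusted p = 0.772). Saa4 rose in both genotypes (0.55 ± 0.11 in WT_RA and 0.63 ± 0.11 in KO_RA mice, adjusted p = 0.0407 and 0.0405). Whether the genotypes differed was tested by the difference of RA effects, which 0 of the 24 passed (2 at an unadjusted p under 0.05, where 11.7% of all genes were). Orosomucoid and amyloid A genes have near-identical copies, so their probe sets may read more than 1 gene.

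**Figure D4:**
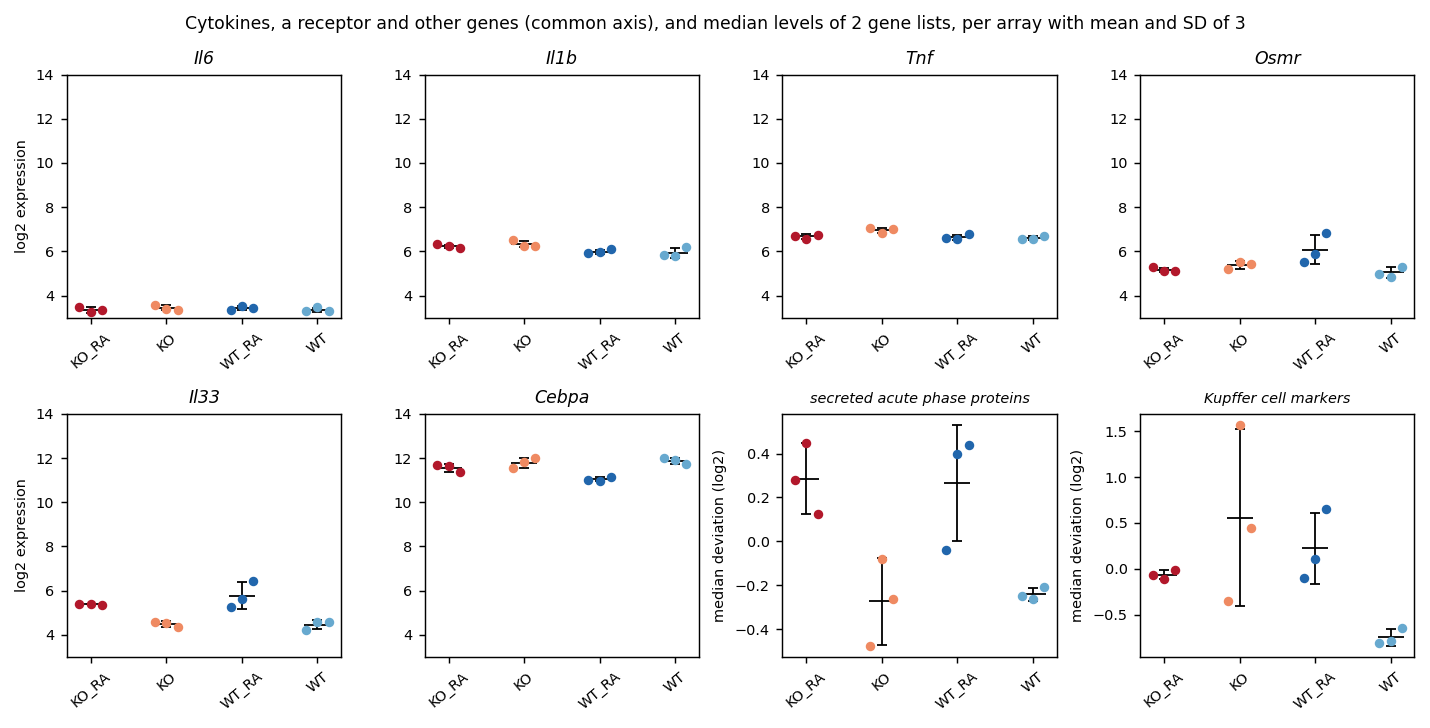
Log2 expression on each array of Il6, Il1b, Tnf, Osmr, Il33 and Cebpa (common axis) and the median deviation from the gene mean over the secreted acute phase list and the Kupffer cell and macrophage list, with mean and SD of 3 arrays, for KO_RA, KO, WT_RA and WT. On the common axis Il6, Il1b and Tnf span narrow ranges, though the KO arrays lay above all others for Tnf. Cebpa is lowest in WT_RA, and the Kupffer cell list is lowest in WT.

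Of 10 measured hepatocyte markers 1 passed in any comparison, Tat. It was higher in KO_RA than in KO livers (0.92 ± 0.16, limma adjusted p = 0.0376), beside 0.274% of all genes. Markers of several other cell types differed in some of these comparisons. Over 15 measured Kupffer cell and macrophage markers of 16 listed, the median deviation ran from -0.11 to -0.01 in KO_RA, -0.35 to 1.57 in KO, -0.10 to 0.66 in WT_RA and -0.81 to -0.64 in WT livers. Cd163 (1.49) and Cd14 (1.12) passed for WT_RA against WT, beside 0.871% of all genes higher, and 0 passed for KO against WT. All 15 were above 0 in both, where 5864 and 6809 of the 12393 genes were. At an unadjusted p under 0.05 were 9 for WT_RA against WT, 15 for KO against WT and 2 for KO_RA against KO. Of all genes 11.7%, 16.3% and 14% were. For the difference of RA effects 12 were, beside 11.7%, all 15 changes were below 0, and 0 passed. For KO_RA against KO, 14 of the 15 were below 0, where 7064 of the 12393 genes were. For KO_RA against WT_RA, Cd163 was lower (-0.79, limma adjusted p = 0.0381), beside 3.95% of all genes in either direction. None of the 15 was below the lower quartile on every array.

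Of 12 endothelial markers, Tek, an angiopoietin receptor gene, was lower in KO_RA than in KO livers (-0.99 ± 0.15, limma adjusted p = 0.0184), beside 0.226% of all genes. There 6 had an unadjusted p under 0.05, beside 14% of all genes. Of these 6, Tek, Clec4g (-0.74), Oit3 (-0.54), Cdh5 (-0.52) and Eng (-0.28) were lower in KO_RA than in KO livers. Only Ptprb was higher (1.04 ± 0.38, limma adjusted p = 0.248). Its lowest arrays were KO 1 and WT_RA 3. For KO against WT 7 of the 12 had an unadjusted p under 0.05, beside 16.3% of all genes, and 0 passed. The median deviation of the 12 ran from -0.10 to -0.03 in KO_RA and 0.10 to 0.21 in KO livers. It ran from -0.05 to 0.03 in WT_RA and -0.24 to 0.0032 in WT livers, and was highest in KO. Of 10 stellate cell and fibroblast markers 0 passed in any comparison, with 4 at an unadjusted p under 0.05 for KO_RA against KO, beside 14% of all genes. Among them the collagen gene Col3a1 was lower (-1.71 ± 0.36, limma adjusted p = 0.0609) and the dim gene Lrat higher (0.39 ± 0.09, adjusted p = 0.0823). Of 10 T cell, B cell and NK cell markers and 5 cholangiocyte markers 0 passed in any comparison, with 0 to 3 and 0 to 1 at an unadjusted p under 0.05 in the pairwise comparisons.

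Over 11 measured neutrophil markers of 12 listed, the median deviation ran from -0.06 to 0.08 in KO_RA, 0.02 to 0.16 in KO, -0.13 to 0.19 in WT_RA and -0.35 to 0.02 in WT livers, and 0 passed in any comparison. S100a8 read 6.57, 7.19 and 5.13 in KO_RA, 5.35, 6.13 and 5.03 in KO, 5.99, 7.10 and 8.29 in WT_RA and 4.57, 4.60 and 5.45 in WT livers, highest on WT_RA 3. For WT_RA against WT 3 of the 11 had an unadjusted p under 0.05, beside 11.7% of all genes. These were S100a8 (2.25), S100a9 (1.53) and Mmp9 (0.42), each wholly higher in WT_RA livers. For KO_RA against KO 0 did, beside 14% of all genes. The granule genes Mpo (4.73 to 5.25) and Ltf (6.41 to 6.69) were nearly level over the 12 arrays. The part of these cells in the results on Lcn2 and the other genes was not tested, and in whole liver a change in the number of cells of a type and a change in RNA per cell cannot be told apart.

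For each of the 3 genes that passed in any comparison, the genes with the closest profile were sought by the root mean square difference of centred log2 levels over the 12 arrays. Closest to Lcn2 were Orm2 (0.471), Saa2 (0.652) and Rad51b (0.683), where Lcn2 itself varied by 1.72 about its mean. Rad51b, a recombination repair gene, read 7.29, 7.77 and 7.04 in KO_RA, 5.04, 6.91 and 5.94 in KO, 7.44, 7.81 and 7.88 in WT_RA and 4.68, 4.94 and 5.45 in WT livers. Like Lcn2, its highest array on normal diet was KO 2.

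Closest to Nfkbiz were Orm3 (0.370), Steap4, a metalloreductase gene (0.645), and Fkbp5, a chaperone gene (0.663), beside its own variation of 1.27. Orm3 read 9.82, 10.27 and 9.77 in KO_RA, 7.95, 7.80 and 7.53 in KO, 8.77, 9.96 and 10.001 in WT_RA and 7.62, 7.81 and 7.49 in WT livers. WT_RA 1 was the lowest RA array for Orm3, and KO_RA 3 and WT_RA 1 were the lowest for Nfkbiz.

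Closest to Cebpb were Tat, which encodes tyrosine aminotransferase (0.180), Tsc22d3 (0.208) and the clock gene Per1 (0.213), beside its own variation of 0.518. Tat read 12.62, 13.09 and 12.95 in KO_RA, 12.05, 11.90 and 11.96 in KO, 12.80, 12.97 and 12.40 in WT_RA and 12.81, 12.38 and 12.50 in WT livers. As with Cebpb, the 3 KO arrays were the lowest. Changes for KO_RA against KO were 0.92 for Tat, 0.97 for Tsc22d3 and 0.86 for Per1, and for KO against WT they were -0.59, -0.64 and -0.64. These genes were picked for their likeness, so the values are a description.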

How the data were processed

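RNA from 12 livers was hybridized to Affymetrix mouse arrays. The authors deposited 1 log2 value per probe set and array; the submitters' processing notes name RMA and Partek 6.11, whereas the methods name MAS5 with a detection filter. The arrays' values were used as given, with 0 of the table's columns left out. Of 22690 probe sets, 20380 carried 1 symbol, 691 several and 1619 none (64 controls included). Symbols were checked by gene identifier for 20351 probe sets, and 0 changed. For each of 12393 genes the probe set of highest mean was kept, unfiltered.

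A model with 1 coefficient per group (limma 3.58.1, R 4.3.3, two-sided, 8 residual degrees of freedom) was fitted to all genes, with Benjamini-Hochberg adjustment within a comparison and a call at an adjusted p under 0.05. The fit was tested on simulated data. The number of arrays limits the precision.

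The 10 genes and all lists were chosen with earlier results of these data known. Named besides the 10 genes are up to 4 called genes of each list by size of change (otherwise the 2 with the smallest adjusted p), the 3 nearest profiles of each called gene, the Actb controls and cell type markers. Il6, Il1b and Rxra, the Gapdh control and the further probe sets were added for context. The text prints a part of these. Alternatives were a replicate block, other probe set rules, normalizations, fits and weights, and left-out arrays. Values of further probe sets without WT_RA 3 and KO 1 were added after seeing the data.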

Additional observations from a re-analysis of the deposited data

How the results depend on the processing

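The number of genes called depended on the fit. For WT_RA against WT the count was 2, 6 with array weights, and 1 to 4 without single arrays. For KO against WT it was 1, 0 with a further quantile normalization, 2 with array weights and 0 to 1 without single arrays. For KO_RA against KO it was 3, 1 when only the compared groups were fitted, 1 with an intensity trend and robust prior, 5 with array weights, 5 at an adjusted p under 0.10 and 0 to 4 without single arrays. For KO_RA against WT_RA it was 0, 1 when only the compared groups were fitted, 1 with array weights and 0 to 1 without single arrays. The cause was not tested. The difference of RA effects gave 0 in all fits run, and it was not fitted on the compared groups alone.

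Replicate numbers did not pair the arrays, since 5 of 18 same-number pairs correlated above 0.1 (range -0.46 to 0.27). With the replicate number as a block, the counts were 2 for WT_RA against WT, 0 for KO against WT, 3 for KO_RA against KO and 0 for both other comparisons. The call lost was that of Cebpb for KO against WT (adjusted p = 0.0766), while for KO_RA against KO Nfkbiz was lost (0.0526) and Stat3 gained (0.0466).

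No called change reversed in any fit. Signs of uncalled changes reversed as follows. Without WT_RA 3 and KO 1, Il6ra was 0.70 for WT_RA against WT and -0.12 for KO_RA against WT_RA, Stat3 was 0.0184 for KO against WT, and Socs3 was 0.27 for KO_RA against KO. There Nfkbiz was 0.21 and Nfkbia -0.045 for KO_RA against WT_RA, and the difference of RA effects was 0.015 for Nfkbiz and -0.0177 for Il1rn. With array weights, Il1r1 was 0.0423 for WT_RA against WT, Nfkbiz -0.22 for KO against WT, Lcn2 -0.025 and Nfkbia -0.0775 for KO_RA against WT_RA, and the difference was 0.0346 for Nfkbiz and -0.089 for Il1rn. With the mean of all probe sets, KO_RA against WT_RA was 0.14 for Nfkbiz and 0.0693 for Cebpb, and the difference was -0.27 for Il1rn. With a further quantile normalization, KO_RA against WT_RA was -0.0149 for Lcn2 and 0.0461 for Nfkbiz. Without single arrays, KO_RA against WT_RA ran from -0.28 to 0.12 for Cebpb, -0.12 to 1.27 for Il6ra, -0.41 to 0.24 for Lcn2, -0.14 to 0.18 for Nfkbia and -0.42 to 0.25 for Nfkbiz. WT_RA against WT ran from -0.40 to 0.36 for Il1r1 and -0.69 to 0.70 for Il6ra, KO_RA against KO from -1.12 to 0.27 for Socs3, KO against WT from -0.25 to 0.0184 for Stat3, and the difference from -0.21 to 0.12 for Il1rn.

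Signal limits the dimmest genes: Il6 lay below the lower quartile of its array on all 12 arrays.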
